A study of Mus musculus with 4 samples.

Results

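The DNA damage checkpoint and repair genes described here are 45 mouse genes that were chosen by name, each through the probes that carry its symbol on the array design. They are 45 of 24287 gene symbols on the array, and all 45 had at least 1 probe. Gene expression was measured in LSK cells, the marrow fraction without lineage markers and with Sca-1 and c-Kit in which blood stem cells and early progenitors are found. The samples were 2 arrays of LSK cells from EZH1 knockout mice and 2 arrays of LSK cells labelled control, all from the C57Bl/6J strain and read in 1 colour (Cy3). The allele, the promoter or Cre behind the knockout, the age of the mice and the genotype of the controls are not stated by the labels. Neither do they say that replicates were separate mice, so each p-value reflects only how far these samples spread, which may be technical. RNA amounts of 0.1 to 5 ng were amplified before labelling, per the labels' protocols.

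Cells read DNA damage through a pair of sensor kinases. ATM is recruited to double-strand breaks by the MRN complex (Mre11a, Rad50, Nbn), ATR to single-stranded DNA at stalled forks, and both signal through the effector kinases CHEK1 and CHEK2. Breaks are then joined end to end or copied from a sister chromatid by homologous recombination, while the Fanconi anaemia proteins unhook crosslinked strands, excision pathways replace damaged bases or stretches of a strand, and mismatch repair corrects replication errors. In blood stem cells these pathways are known from inherited marrow failure: loss of Fanconi anaemia genes depletes the stem cell pool.

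Promoter windows of these genes are shown as background, since E2F factors are known regulators of replication and repair genes. Whether E2F factors bear on the signals below was not tested. RefSeq windows of build GRCm38.p6, from 250 bases before to 50 bases after each gene's start, were found for 36 of the 45 members, in 38 windows. An E2F word (TTTCCCGC, TTTCGCGC, TTTGCCGC or TTTGGCGC, on either strand) stood in 7 of the 38 windows (18.4%) and in 2.26% of all 32851 windows. The word CCAAT, on either strand, stood in 55.3% of the members' windows and 37.4% of all windows, the GC box GGGCGG in 71.1% and 35.7%, and the cell cycle element TTTGAA in 2.63% and 17.9%. The 7 members with an E2F word were Bard1, Brca2, Chek2, Fancg, Mdc1, Msh6 and Xrcc6. The words were chosen with the results known, and a match describes letters in this window only. All windows are those of 27025 genes, whether or not they were tested on these arrays. The first 4 lines give windows with an E2F word in capitals, for genes of signalling, recombination and mismatch repair whose values follow. The last line gives the window of Xrcc3, the recombination gene with the lowest unadjusted p, with its CCAAT words in capitals.
Brca2, chr5:150522371-150522670, plus strand: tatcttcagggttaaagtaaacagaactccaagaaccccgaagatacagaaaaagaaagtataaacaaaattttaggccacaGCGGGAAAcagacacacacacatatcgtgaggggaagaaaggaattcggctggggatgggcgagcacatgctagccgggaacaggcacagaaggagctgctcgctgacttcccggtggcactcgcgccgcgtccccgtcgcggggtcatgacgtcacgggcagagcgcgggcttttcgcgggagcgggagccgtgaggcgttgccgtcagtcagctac
Chek2, chr5:110839733-110840032, plus strand: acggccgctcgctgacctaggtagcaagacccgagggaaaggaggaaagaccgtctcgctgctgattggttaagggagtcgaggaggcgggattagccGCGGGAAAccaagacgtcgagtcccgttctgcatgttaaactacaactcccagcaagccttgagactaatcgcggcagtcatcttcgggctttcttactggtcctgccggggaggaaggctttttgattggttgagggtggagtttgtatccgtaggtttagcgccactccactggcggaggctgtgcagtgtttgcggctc
Mdc1, chr17:35841248-35841547, plus strand: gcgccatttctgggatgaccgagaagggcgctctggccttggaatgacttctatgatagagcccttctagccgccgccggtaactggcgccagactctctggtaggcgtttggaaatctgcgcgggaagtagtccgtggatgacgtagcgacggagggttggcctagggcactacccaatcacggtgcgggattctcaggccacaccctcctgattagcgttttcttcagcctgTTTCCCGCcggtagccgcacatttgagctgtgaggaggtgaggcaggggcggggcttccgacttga
Msh6, chr17:87974800-87975099, plus strand: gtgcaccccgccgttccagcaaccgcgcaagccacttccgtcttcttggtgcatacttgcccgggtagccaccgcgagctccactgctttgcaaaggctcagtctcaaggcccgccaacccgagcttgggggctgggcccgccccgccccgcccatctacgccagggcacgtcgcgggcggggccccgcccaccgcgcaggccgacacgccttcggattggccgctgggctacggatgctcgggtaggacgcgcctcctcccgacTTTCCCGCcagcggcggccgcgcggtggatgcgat
Xrcc3, chr12:111813830-111814129, minus strand: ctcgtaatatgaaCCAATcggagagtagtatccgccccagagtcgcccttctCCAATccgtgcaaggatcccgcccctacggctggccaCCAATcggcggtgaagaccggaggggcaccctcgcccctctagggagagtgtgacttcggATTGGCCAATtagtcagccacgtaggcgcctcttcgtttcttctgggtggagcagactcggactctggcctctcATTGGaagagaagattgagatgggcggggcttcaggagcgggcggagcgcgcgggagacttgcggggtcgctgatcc

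Signals are given as scaled log2 values, that is log2 intensity minus the 75th percentile of the array, so that 0 is that percentile. A gene is represented by its brightest probe and named by the symbol of the array design, which can be old (H2afx is now H2ax). A probe was tested when it lay above the 20th percentile of the array, the limit used for detection, on both arrays of at least 1 group. That limit was an intensity of 22.8 and 87.3 in the knockout pair, against 12.4 and 57.6 in the control pair. Of the 45 members 44 were tested, and these 44 were above the limit on all 4 arrays. The brightest of 4 Ezh1 probes had scaled signals of 0.92 and 1.14 in the knockout pair, against 0.74 and 0.78 in the control pair, and the 4 log2 fold changes ran from -1.15 to 0.27. No label states which part of Ezh1 was deleted, so these probes do not check the labels, and knockout stands throughout for the arrays so labelled.

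Most repair genes had lower signal on the knockout arrays, by small amounts. Of 44 members tested 36 were lower and 8 higher. Their median was -0.28 on the log2 fold change scale (quartiles -0.47 and -0.082), which is 1.21-fold lower. In bulk RNA, fewer cells of a type and less RNA per cell cannot be told apart. Over all 19272 genes tested the median was 0.027, and 47.9% were lower. Both knockout arrays lay below both controls for 26 members (59.1%), where 21.0% of all genes did so. Both knockout arrays lay above both controls for Xrcc4, Ercc1 and Ung alone among the members (6.82%), where 17.5% of all genes did so. No member was past the threshold of 0.05 after limma with Benjamini-Hochberg adjustment over all 43759 probes tested. Nor was any other gene (0% of all genes), and the members' adjusted p ran from 0.780 to 0.944. At an unadjusted p under 0.05 there was 1 member, Xrcc3, among the lower and 0 among the higher, where 1.20% and 3.49% of all genes were called. The 95% interval of the brightest probe included 0 for 43 of the 44, while a dimmer probe each of Bard1 and Pms2 had an interval without 0.

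The size of that shift depended on what it was set beside and on single arrays. Genes tested whose mean signal lay within the members' quartiles (5563 genes) had a median of -0.15, with 63.6% lower and 31.4% with both knockout arrays below both controls. These genes of like signal, the members' signal band, were set from all 44 tested members together and not matched to any pathway or other list. Against these genes, a comparison chosen after the data were seen, the members' median was lower by a log2 difference of -0.13, against -0.30 beside all genes. Without control replicate 1 the members' median minus that of all genes was -0.13, and without knockout replicate 1 it was -0.47. Control replicate 1 lay above control replicate 2 for 34 of the 44 members. With each array centred on its median, 17 members in place of 26 had both knockout arrays below both controls (16.6% of all genes).

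**Figure D1:**
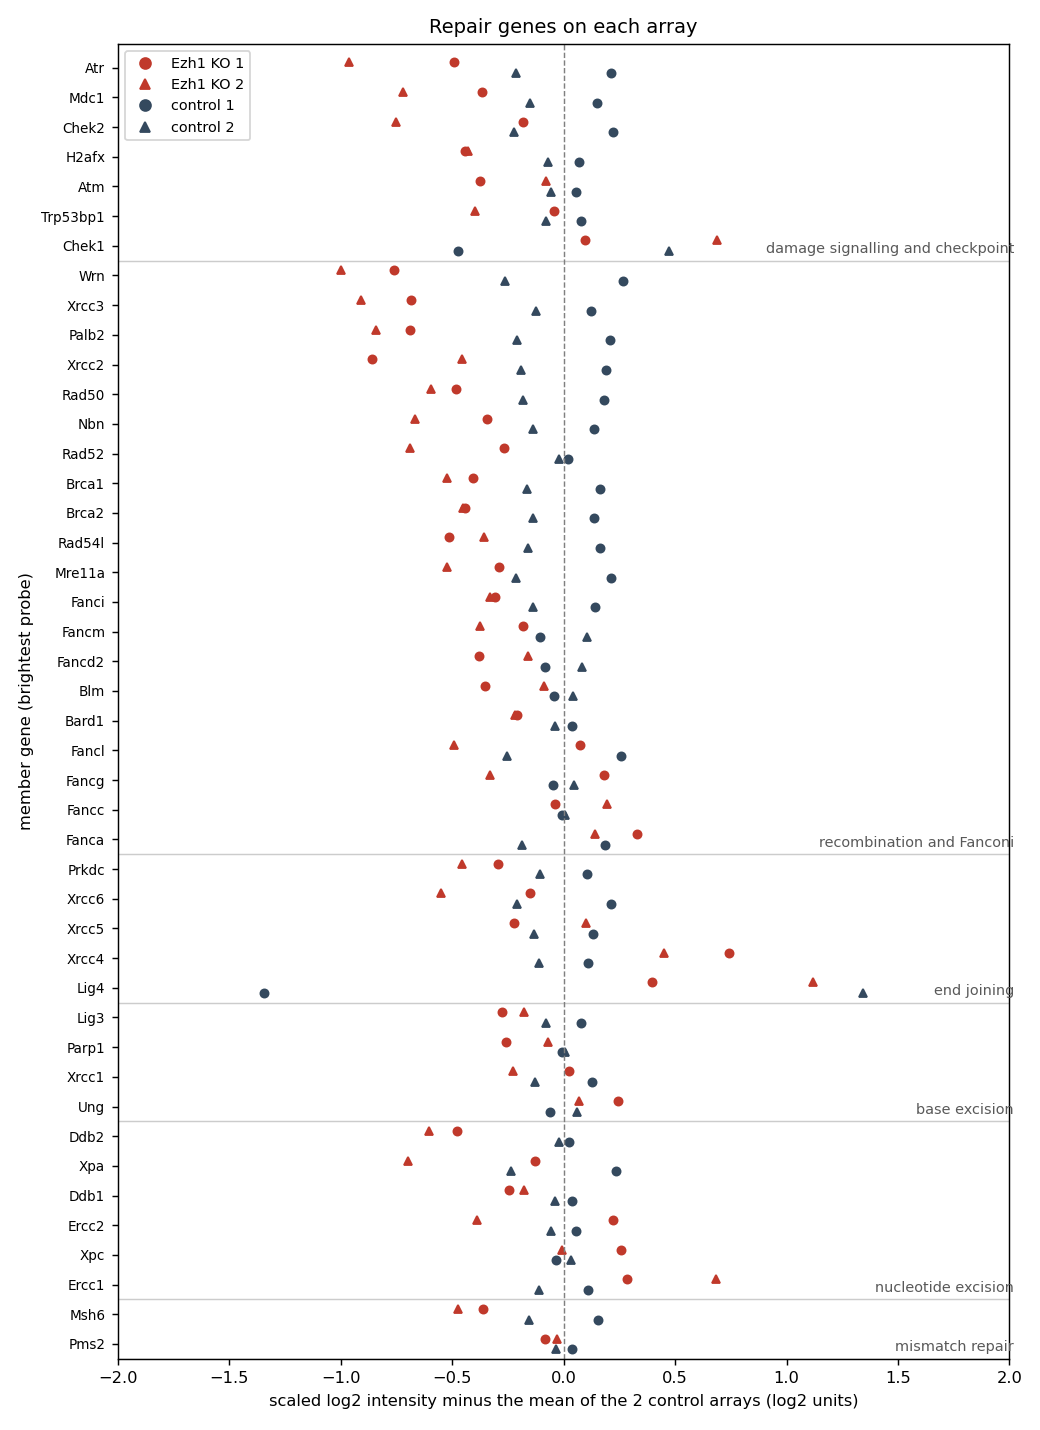
Scaled log2 signal of each tested member on each array, minus the mean of the 2 control arrays (x axis, log2 units), grouped by pathway (y axis). Red marks are the knockout arrays and dark marks the controls, with circles for replicate 1 and triangles for replicate 2. Recombination genes from Wrn to Bard1 have both red marks left of both dark marks, whereas Xrcc4 and Ercc1 have them to the right and Lig4 spreads widest on the controls.

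Genes of damage signalling were lower by 1.35-fold at the median (-0.44 in log2), with 6 of 7 lower. Both knockout arrays lay below both controls for 4 of the 7 (57.1%), beside 21.0% of all genes and 31.4% of the members' signal band. Atr, the kinase that answers stalled replication forks, had scaled signals of 1.09 and 0.61 in the knockout pair, against 1.79 and 1.36 in the control pair. Both knockout arrays were lower, by 1.65-fold (log2 fold change -0.73, 95% interval -1.69 to 0.23), and a second probe gave -0.66. Atm, the kinase that answers double-strand breaks, had -1.88 and -1.59 in the knockout pair, against -1.45 and -1.57 in the control pair. The groups did not overlap, but replicate 2 of the knockout and replicate 2 of the control lay closer together than replicates of either group, and the log2 fold change was -0.23 (-0.998 to 0.55).

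The effector kinases did not follow a common direction. Chek1, which ATR activates, had -2.08 and -1.49 in the knockout pair, against -2.65 and -1.70 in the control pair. The groups overlapped, and the log2 fold change of 0.39 (-0.96 to 1.74) turned to -0.080 without control replicate 1. Chek2, which ATM activates, had -1.64 and -2.21 in the knockout pair, against -1.23 and -1.68 in the control pair. Here too the groups overlapped, with a log2 fold change of -0.47 (-1.49 to 0.56).

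Chromatin factors that mark and hold a break had negative fold changes. H2afx encodes the histone variant that is phosphorylated around breaks. It had 0.39 and 0.41 in the knockout pair, against 0.90 and 0.77 in the control pair, with means of 0.40 ± 0.010 in the knockout pair, against 0.83 ± 0.097 in the control pair (n = 2 each, with SD). Replicates were close and did not overlap between groups, and the log2 fold change was -0.44 (-1.15 to 0.28). Mdc1, the adaptor that binds phosphorylated H2AX, had 1.02 and 0.67 in the knockout pair, against 1.54 and 1.23 in the control pair, a log2 fold change of -0.54 (-1.39 to 0.31). Trp53bp1, which steers breaks toward end joining, overlapped between groups with a log2 fold change of -0.22 (-1.03 to 0.59), and its second probe gave -0.27.

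Most recombination and Fanconi anaemia genes were lower. Of 20 members 18 were lower, with a median of -0.42 (1.34-fold lower). For 16 of the 20 (80%) both knockout arrays lay below both controls, beside 21.0% of all genes and 31.4% of the members' signal band. The median signal of these 20 members was -0.63 on each knockout array and -0.17 on each control array. Xrcc3, which acts in strand exchange during homologous recombination, had -0.56 and -0.79 in the knockout pair, against 0.24 and -0.00083 in the control pair. It was 1.74-fold lower (log2 fold change -0.80, -1.58 to -0.017), with a limma adjusted p of 0.780. By brightest probe, Xrcc3 was the single member whose interval left out 0. Xrcc2, which acts in the same process, had -2.41 and -2.01 in the knockout pair, against -1.36 and -1.74 in the control pair. It was 1.58-fold lower (-0.66, -1.56 to 0.25), and its second probe gave -0.35 with arrays that did not overlap either.

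The BRCA genes, whose products act on resected DNA early in recombination, lay together. Palb2, the bridge between BRCA1 and BRCA2, had -1.26 and -1.40 in the knockout pair, against -0.36 and -0.77 in the control pair. It was 1.70-fold lower (log2 fold change -0.77, -1.60 to 0.071), and its second probe gave -0.65, both without overlap between groups. Brca1 had 0.47 and 0.35 in the knockout pair, against 1.04 and 0.71 in the control pair, a log2 fold change of -0.47 (-1.25 to 0.32). Brca2 had 1.09 and 1.08 in the knockout pair, against 1.67 and 1.40 in the control pair, a log2 fold change of -0.45 (-1.20 to 0.31). In both genes the knockout arrays lay below the controls, while the controls differed from each other by more than the knockout arrays did. Bard1, the partner of BRCA1, had a log2 fold change of -0.21 for its brightest probe, and its other probes gave 0.40 and -1.15, so that its direction rests on the probe.

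The MRN genes, which sense and trim broken ends, were all lower without overlap between groups, with log2 fold changes of -0.54 for Rad50, -0.51 for Nbn and -0.41 for Mre11a. Rad52 (-0.48), a strand annealing protein, and Rad54l (-0.44), a motor protein that acts in strand invasion, were lower in the same way. Among the RecQ helicases, which unwind recombination intermediates, Wrn had -1.59 and -1.83 in the knockout pair, against -0.56 and -1.09 in the control pair. It had the most negative log2 fold change of the 44 members (-0.88, -1.80 to 0.042), but its dimmer probe gave 0.40 with arrays that overlapped. Blm, the helicase of Bloom syndrome, had a log2 fold change of -0.22 (-0.98 to 0.54).

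The Fanconi anaemia genes gave values on both sides of 0. Fancd2, which is ubiquitinated with FANCI at a crosslink, had -2.26 and -2.04 in the knockout pair, against -1.96 and -1.80 in the control pair, a log2 fold change of -0.27 (-1.03 to 0.49). Its partner Fanci gave -0.32 with its brightest probe and 0.94 with a dimmer one whose arrays overlapped. Fancm, the translocase that anchors the core complex, was lower without overlap (-0.28). The core complex genes themselves were split. Fancg (-0.075) and the ubiquitin ligase Fancl (-0.21) were lower and Fanca (0.23) and Fancc (0.079) higher, all 4 with arrays that overlapped.

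**Figure D2:**
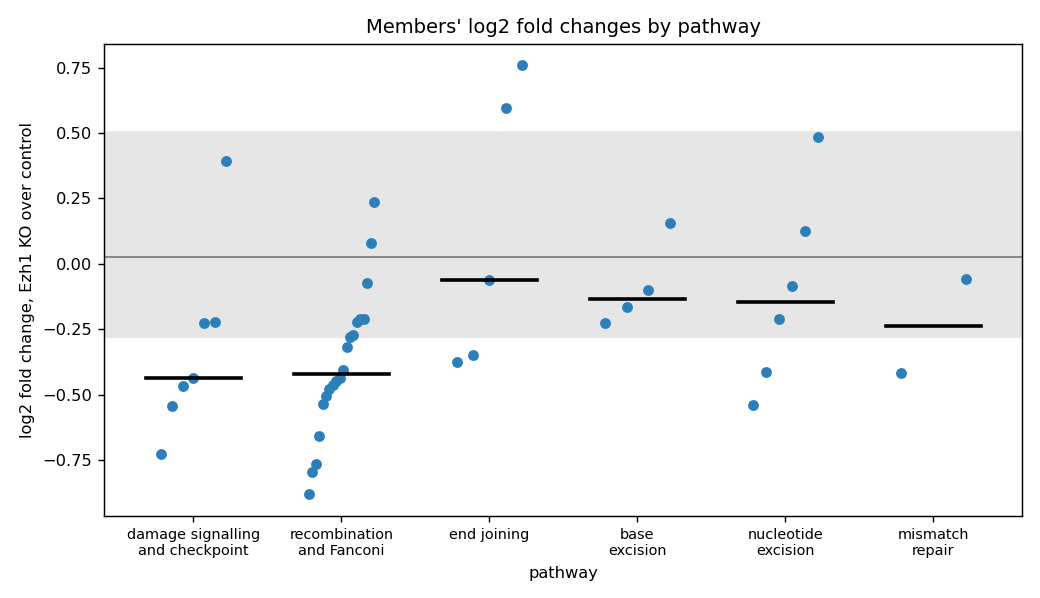
Log2 fold change, knockout over control, of each tested member (points, y axis) by pathway (x axis), with the pathway's median as a black bar. The grey line and band are the median and quartiles of all 19272 genes tested. Medians of signalling (-0.44) and recombination (-0.42) lie below the band, and those of end joining (-0.062) and both excision pathways and mismatch repair (-0.24) lie inside it.

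End joining genes, which ligate breaks without a template, had no common direction, with 3 of 5 lower and a median of -0.062. Prkdc, the catalytic subunit of the DNA-dependent kinase, had -2.25 and -2.41 in the knockout pair, against -1.85 and -2.06 in the control pair. The groups did not overlap and the log2 fold change was -0.38 (-1.13 to 0.38). The Ku subunits that hold the ends differed less. Xrcc6 (Ku70) had 1.86 and 1.46 in the knockout pair, against 2.22 and 1.80 in the control pair (-0.35, -1.27 to 0.57). Xrcc5 (Ku80) had 0.37 and 0.69 in the knockout pair, against 0.72 and 0.46 in the control pair (-0.062, -0.88 to 0.76). In both Ku genes the groups overlapped.

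The other 2 members of end joining act at the ligation step. Xrcc4, the scaffold of ligase IV, had -2.56 and -2.85 in the knockout pair, against -3.19 and -3.41 in the control pair. Both knockout arrays were higher, by 1.51-fold (log2 fold change 0.60, -0.20 to 1.39). Lig4, the ligase itself, had -3.93 and -3.21 in the knockout pair, against -5.67 and -2.98 in the control pair. Its controls spread over more than the groups differed, with means of -3.57 ± 0.51 in the knockout pair, against -4.33 ± 1.90 in the control pair (n = 2 each, with SD), and the log2 fold change of 0.76 (-2.20 to 3.72) turned to -0.59 without control replicate 1.

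Excision genes had smaller values, with 7 of 10 lower and a median of -0.13. Both knockout arrays lay below both controls for 4 of the 10 (40%) and above them for 2 (20%). The shares were 21.0% and 17.5% for all genes, and 31.4% and 13.4% for the members' signal band. In base excision, Parp1, the sensor of strand breaks, had 1.95 and 2.13 in the knockout pair, against 2.20 and 2.21 in the control pair (log2 fold change -0.16, -0.89 to 0.56). Lig3, which seals the nick, had 0.17 and 0.26 in the knockout pair, against 0.52 and 0.37 in the control pair (-0.23), and its second probe gave -0.60, neither with overlap. Xrcc1, the scaffold for LIG3, had 0.78 and 0.53 in the knockout pair, against 0.88 and 0.63 in the control pair, which overlapped (-0.10). Ung, which removes uracil, had 7.59 and 7.42 in the knockout pair, against 7.29 and 7.41 in the control pair, with 0.16 as its log2 fold change. Its arrays did not overlap, but knockout replicate 2 and control replicate 2 differed by less than replicates of either group. The 1 probe of Ung had intensities from 210959 to 289024, above those of the globin gene Hba-a1 (68760 to 100500). Whether that probe reads Ung alone was not tested. Ogg1, the glycosylase for oxidised guanine, was above the limit on 1 of 4 arrays only and was not tested; its scaled signals were -5.88 and -5.57 in the knockout pair, against -5.67 and -7.20 in the control pair.

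In nucleotide excision 4 of 6 genes were lower, with a median of -0.15. Ddb2, which recognises ultraviolet lesions, had 0.26 and 0.13 in the knockout pair, against 0.76 and 0.71 in the control pair. It was 1.45-fold lower (log2 fold change -0.54, -1.25 to 0.17), a difference larger than the spread of either pair of replicates. Its partner Ddb1 had 3.23 and 3.30 in the knockout pair, against 3.51 and 3.44 in the control pair (-0.21, -0.92 to 0.50), again without overlap. Xpa, which checks the opened lesion, had 1.499 and 0.93 in the knockout pair, against 1.86 and 1.39 in the control pair, which overlapped (-0.41, -1.45 to 0.62). Ercc1, the partner of the XPF nuclease, was on the other side, with -0.34 and 0.064 in the knockout pair, against -0.51 and -0.73 in the control pair (0.48, -0.36 to 1.33). Xpc, the sensor of helix distortion (0.13), and the TFIIH helicase Ercc2 (-0.084) overlapped between groups.

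Mismatch repair was measured by 2 members. Msh6, which recognises mismatched bases, had 2.26 and 2.14 in the knockout pair, against 2.77 and 2.46 in the control pair, without overlap (log2 fold change -0.42, -1.20 to 0.36). Pms2, an endonuclease of mismatch repair, had -1.02 and -0.97 in the knockout pair, against -0.91 and -0.98 in the control pair (-0.056, -0.76 to 0.65). Its second probe stood at -1.25 and -1.41 in the knockout pair, against -2.28 and -3.03 in the control pair, a log2 fold change of 1.33 (0.27 to 2.38), so the probes of Pms2 do not give 1 answer. Over all members, 15 had more than 1 probe tested. In 8 of these the probes were all lower, and in 7 (Bard1, Fanca, Fancc, Fanci, Fancl, Pms2 and Wrn) they disagreed in direction.

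The members' pathway medians were ordered from signalling and recombination (-0.44 and -0.42) through mismatch repair (-0.24) and excision (-0.13) to end joining (-0.062). The other genes of the same pathways did not follow this order, with medians of -0.52 for mismatch repair, -0.41 for end joining, -0.24 for signalling, -0.23 for recombination, -0.15 for nucleotide excision and -0.074 for base excision. Differences between pathways were not tested: the pathways share arrays and hold from 2 to 20 tested genes. Among the members, signalling and recombination kept a negative median under every scaling tried and without each array in turn. Without each array in turn, base excision (-0.16 to -0.062) and mismatch repair (-0.33 to -0.14) stayed negative too. For end joining the median turned to 0.099 without knockout replicate 1, and for nucleotide excision to 0.047 without knockout replicate 2. Without control replicate 1 the medians were -0.24 for signalling, -0.31 for recombination, -0.14 for mismatch repair and -0.062 for base excision. Each of these was smaller in size than with both controls, whereas the median of end joining became more negative.

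Other genes of the same pathways, listed by role, were lower in like proportion. All 104 were tested, and 84 were lower and 20 higher, with a median of -0.22. For 46 (44.2%) both knockout arrays lay below both controls, beside 21.0% of all genes and 31.4% of the members' signal band. Without control replicate 1 the count lower was 66, with a median of -0.10. At the adjusted threshold there was none (limma). At an unadjusted p under 0.05 in the same fit 4 were lower and 0 higher, where 1.20% and 3.49% of all genes were called. Among checkpoint genes 18 of 20 were lower, including the clamp subunit Hus1 (log2 fold change -0.99), and Timeless (-0.75) and Tipin (-0.60), which form the fork protection complex. Timeless had 0.043 and 0.039 in the knockout pair, against 0.95 and 0.64 in the control pair, so that the groups were far apart relative to the knockout pair.

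Among further recombination genes 24 of 29 were lower, with the Holliday junction nuclease Gen1 at -0.88 (-1.66 to -0.10) and the helicase Recql at -0.80. Fance, a core complex gene, was on the other side at 1.14 (-0.090 to 2.37), and its 2 probes disagreed in direction. In base excision 12 of 16 were lower, with Parp2, a second strand break sensor, at -0.82 (-1.52 to -0.12). Parp2 had -1.42 and -1.38 in the knockout pair, against -0.58 and -0.57 in the control pair, with means of -1.40 ± 0.025 in the knockout pair, against -0.58 ± 0.0062 in the control pair (n = 2 each, with SD). The glycosylases Neil3 (-0.82) and Mutyh (-0.71) were lower without overlap as well.

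In nucleotide excision 14 of 17 further genes were lower. Gtf2h4, a TFIIH subunit, had the most negative value of its pathway (-1.13, -2.06 to -0.19), beside the TFIIH genes Gtf2h1 (-0.55) and Ccnh (-0.69). Of the mismatch genes 4 of 5 were lower, with Pms1 at -0.99 and Msh3 at -0.66. For end joining 6 of 9 were lower, among them Polq (-0.67), the polymerase of microhomology joining, and Nhej1 (-0.52), while the gap-filling polymerase Polm (0.89) was higher on both knockout arrays. Of the translesion genes, which copy past a lesion, 6 of 8 were lower, with Pold3 at -0.50, Rev3l at -0.43 and Polk at -0.38.

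**Figure D3:**
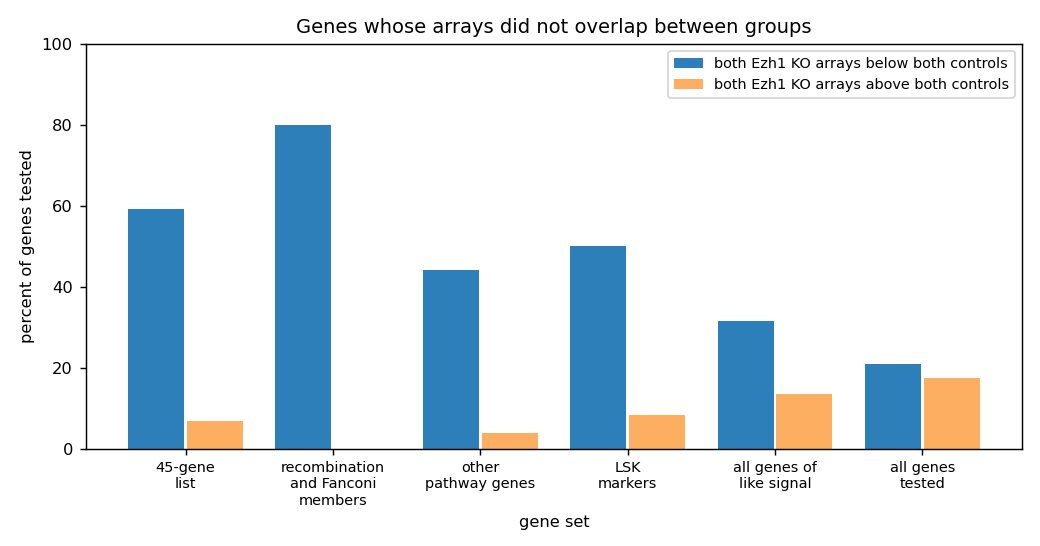
Percent of genes tested (y axis, from 0) whose 2 knockout arrays lay wholly below (blue) or wholly above (orange) the 2 control arrays, for each gene set (x axis). The blue bar is 59.1% for the listed members, 44.2% for other genes of the pathways and 50% for LSK markers. It is 31.4% for genes within the quartiles of all members' signal (genes of like signal) and 21.0% for all genes.

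Markers of some other cell types differed on the same arrays. All 12 LSK markers, Kit, Ly6a (Sca-1) and Cd34 included, were tested. Of these 11 were lower, and the median (log2 fold change) was -0.29, close to that of the repair genes. Their summed signal, in units of the array's 75th percentile, was 71.1 and 57.9 in the knockout pair, against 85.2 and 70.3 in the control pair, so the groups overlapped. Ly6a was the 1 LSK marker that was higher (0.69). All 12 neutrophil markers were higher with arrays that did not overlap, with a summed signal of 131 and 112 in the knockout pair, against 49.6 and 54.2 in the control pair. The summed signal of 9 B-lineage markers was 9.28 and 8.02 in the knockout pair, against 5.37 and 5.11 in the control pair, and that of 9 T and NK markers was 24.9 and 23.6 in the knockout pair, against 18.2 and 16.3 in the control pair. These sums rest mostly on 1 bright gene each, Cd79b and Nkg7. Gene by gene, all 9 B-lineage markers were higher (median log2 fold change 1.54), as were all 8 T and NK markers tested (0.68). Above the limit on all 4 arrays were 11 of 12 LSK, 11 of 12 neutrophil, 8 of 9 B-lineage and 7 of 9 T and NK markers. Summed signal of 6 monocyte and macrophage markers was 31.0 and 27.1 in the knockout pair, against 22.6 and 19.3 in the control pair. That sum rests mostly on Csf1r, and gene by gene 3 of the 6 were lower and 3 higher (median -0.015). Summed signal of 8 erythroid and megakaryocyte markers was 106 and 84.0 in the knockout pair, against 129 and 83.3 in the control pair, so the groups overlapped. It rests mostly on the globin genes Hba-a1 and Hbb-b1, and gene by gene 7 of the 8 were lower (median -0.19). The part of these cells in the repair gene values was not tested.

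Cycling genes were set beside the repair genes because many repair genes are expressed in S phase. Of 19 S phase genes 13 were lower, with a median of -0.13, and 5 (26.3%) had both knockout arrays below both controls, a share near the 21.0% of all genes. Of 19 genes of G2 and mitosis 13 were lower as well, with a median of -0.14, and 10 (52.6%) had both knockout arrays below both controls. Summed S phase signal was 113 and 104 in the knockout pair, against 128 and 109 in the control pair, so the groups overlapped, and summed mitotic signal was 66.5 and 68.0 in the knockout pair, against 75.5 and 66.8 in the control pair, which overlapped too. Their part in the repair gene values was not tested. The 7 members with an E2F word in the promoter window were all lower by their brightest probe, with a median of -0.42. Beside them, 47.9% of all genes and 63.6% of the members' signal band were lower. The arrays of Chek2, Fancg (-0.075) and Xrcc6 overlapped between groups, and the probes of Bard1 disagreed in direction. Of the 28 tested members with a window but no such word 21 were lower, with a median of -0.22, and the difference was not tested. Tested members without a window are in neither group. They were Wrn (-0.88), Xrcc2 (-0.66), Ddb2 (-0.54), Rad50 (-0.54), Nbn (-0.51), H2afx (-0.44), Prkdc (-0.38), Fancd2 (-0.27) and Xpc (0.13). Of the genes with a word, Bard1, Brca2, Fancg, Chek2 and Mdc1 are recombination or signalling genes, so the contrast overlaps with that between pathways.

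**Figure D4:**
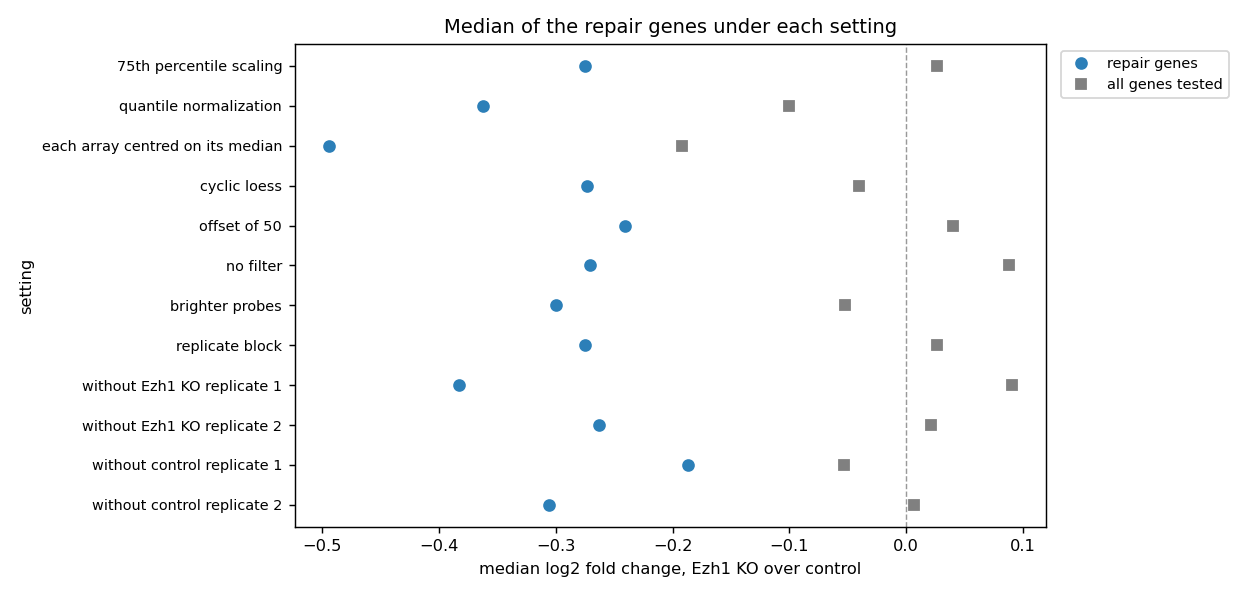
Median log2 fold change, knockout over control (x axis), of the tested repair genes (blue circles) and of all genes tested (grey squares) under each scaling, filter or left-out array (y axis). The repair genes stay left of all genes in every row, and the gap is narrowest without control replicate 1.

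The authors' deposited table lists an unadjusted p under 0.05 for 4 members' brightest probes, all lower: Ddb2 (ratio 1.45, p = 0.0150), H2afx (1.35, 0.0243), Bard1 (1.16, 0.0294) and Xrcc3 (1.74, 0.0408). The ratios in the authors' deposited table are absolute, and their test is not named in it. These p-values come from the same 4 arrays. The share of all probes under 0.05 in that table was not counted, so the 4 members have no background beside them.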

How the data were processed

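Sample titles gave the group and number of each array (2 knockout, 2 control). Linear intensity for each probe was deposited by the authors, and Agilent Feature Extraction is the tool that the submitters' processing notes name. The table holds 55677 probes, without flags or background columns. The authors' deposited comparison table gives an absolute fold ratio, a p-value and a gene symbol per probe, per the file headers. The series' deposited log2 value table was not used, since it lists values under other probe identifiers (see the closing section).

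Intensities were set to at least 1, converted to log2 and scaled to each array's 75th percentile. The 43759 probes above the 20th percentile throughout at least 1 group entered limma 3.58.1 under R 4.3.3 (lmFit, eBayes; 2 residual and 1.78 prior degrees of freedom), two-sided, with Benjamini-Hochberg adjustment and a threshold of 0.05. Intervals are 95%. Genes are represented by the probe with the highest mean signal. Every member may be named; values by array are given for 13 genes set by name and for up to 4 members of each pathway with the lowest p, and up to 3 further genes of each pathway are named likewise, except items that are not reported here. Genes of a pathway are described by counts and medians, with no test over a list. The members and lists were chosen with earlier results of these data known. The fit was tested on simulated data. The alternatives were 4 other scalings or offsets, 2 filters, a replicate block, another test, the mean over probes and leaving out each array. With arrays, their number limits the precision.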

Additional observations from a re-analysis of the deposited data

How the results depend on the processing

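Under every alternative 0 probes were past an adjusted p of 0.05 (limma, and the equal-variance test, which gave 2988 at an unadjusted p under 0.05 against 2513 with limma). Of the 44 members 31 kept their direction under every alternative run for single members, 29 of them lower. Dim probes near the detection limit and 2 arrays a group limit the precision. Leaving out a single array leaves 1 array in a group, which is then assumed to vary like the other group. With the replicate number as a block, fold changes did not change, 0 probes were past the threshold and 9158 were at an unadjusted p under 0.05. Deviations of same-numbered arrays from their group means correlated at 0.690 across probes. The highest correlation between arrays of different groups was 0.951, against 0.934 within the knockout pair and 0.910 within the control pair. The labels do not say whether the replicate numbers pair the arrays, so the main fit has no block. Whether same-numbered arrays share a batch was not tested. The value table of the series was not run as an alternative, since it lists its values under other probe identifiers.

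The members' median was -0.36 with quantile normalization (all genes -0.100) and -0.49 with median centring of each array (all genes -0.19), and ran from -0.38 to -0.19 with arrays left out. Its difference from all genes was -0.23 with cyclic loess and -0.13 beside genes of like signal (chosen after the data were seen), and ran from -0.47 to -0.13 with arrays left out. The count lower ran from 33 to 37, and the count with both knockout arrays below both controls was 17 with median centring. With median centring the medians were -0.66 for signalling, -0.64 for recombination, -0.28 for end joining, -0.35 for base excision, -0.37 for nucleotide excision, -0.46 for mismatch repair, -0.35 for excision as a whole and -0.44 for the other pathway genes. Recombination was -0.44 with quantile normalization, -0.39 with cyclic loess, -0.39 with an offset of 50 and -0.36 with the mean over probes. End joining was 0.0071 with cyclic loess and -0.35 with brighter probes, and mismatch repair was 0.11 with the mean over probes.

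With arrays left out, the medians ran from -0.51 to -0.24 for signalling, -0.54 to -0.31 for recombination, -0.19 to 0.099 for end joining, -0.16 to -0.062 for base excision, -0.28 to 0.047 for nucleotide excision, -0.33 to -0.14 for mismatch repair, -0.18 to -0.052 for excision and -0.31 to -0.10 for the other pathway genes, whose count lower ran from 66 to 86. Of single members, Fancc was -0.14, Ung -0.062 and Xpc -0.093 with median centring, and Xrcc5 was 0.0071 and Ung -0.18 with cyclic loess. With the mean over a gene's probes, added for single members after the data were seen, Fanca was -0.012, Fancc -0.072, Fanci 0.31 and Pms2 0.64. With arrays left out, log2 fold changes ran from -0.080 to 0.86 for Chek1, -0.038 to 0.20 for Fancc, -0.33 to 0.18 for Fancg, -0.49 to 0.071 for Fancl, -0.22 to 0.099 for Xrcc5, -0.59 to 2.10 for Lig4, -0.23 to 0.027 for Xrcc1, -0.0062 to 0.26 for Xpc and -0.39 to 0.22 for Ercc2. The cause of these changes was not tested.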

Other observations

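The series' deposited value table holds log2 values for 16370 probes. Every one of them (100%) equals some probe of the deposited intensity table on all 4 arrays once that is scaled to the 75th percentile (tolerance 0.03 in log2 units), but 3.73% equal the probe of the same identifier. The correlation with the same identifier ran from 0.069 to 0.091 over the 4 arrays, across probes, which are not independent replicates. Column medians were -2.59 and -2.05 for the knockout arrays and -3.34 and -2.54 for the controls.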
